A study of Mus musculus with 3 samples.

Results

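The replication-dependent histone genes were examined in cytosolic RNA of mouse macrophages. They were taken as all genes whose symbol begins with Hist1, Hist2, Hist3 or Hist4 and that have a protein-coding transcript, which gave 67 of 55450 annotated genes: 6 for the linker histone H1, 18 for H2A, 18 for H2B, 12 for H3 and 13 for H4. The cells were primary macrophages grown from the bone marrow of C57BL/6J mice and treated for 25 minutes with 100 ng/ml of lipid A, the part of bacterial lipopolysaccharide that the receptor TLR4 recognises. RNA of the cytosolic fraction was depleted of ribosomal RNA and sequenced as total RNA, from 1 µg per library, in 3 libraries labelled biological replicates 1 to 3. All of them belong to this single treated group and to a single donor record, with age and sex not collected, so no untreated cells and no other fraction can be compared and the spread may be technical in part.

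Replication-dependent histone genes supply the bulk of nucleosome proteins during DNA synthesis. Their messages are unusual among those of animal cells, since most end in a short stem-loop instead of a poly(A) tail. The stem-loop is bound by the protein SLBP, and these RNAs are degraded when DNA synthesis stops. Replacement histones, such as those of H3f3a and H3f3b, are made from ordinary polyadenylated messages throughout the cell cycle. A library from total RNA, unlike one selected on poly(A), can capture both kinds.

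The genes sit in clusters. In the mm10 build, the Hist1 cluster held 54 of the 67 genes on chromosome 13, in a block of 23 genes (chr13:21715763-22043676) and a block of 31 genes (chr13:23531050-23934851). The Hist2 cluster held 10 genes on chromosome 3 (chr3:96219865-96270132), Hist3 held 2 on chromosome 11 (chr11:58948920-58956830), and Hist4 held a single gene, Hist4h4, on chromosome 6 (chr6:136801553-136804415).

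The stem-loop is the sequence that sets this family apart, so it was searched for in the annotated transcript of each gene with the highest level. The search took 16 bases on the transcript strand that begin with GG, hold TT as the first bases of a 4-base loop and end with CC, and whose first 6 bases can pair with the last 6 (G-T pairs allowed). The annotated model of 44 of the 67 genes held such a hairpin, against 1.15% of 58725 protein-coding transcripts of other genes. One example of each of its 6 forms follows, from GENCODE M21 transcripts on mm10, with the 6-base stems in capitals and 5 flanking bases on each side.
Hist1h1c (chr13:23739507-23739532, plus strand): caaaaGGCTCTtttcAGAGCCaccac
Hist1h3c (chr13:23745042-23745067, minus strand): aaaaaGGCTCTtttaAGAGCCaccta
Hist2h2ac (chr3:96220413-96220438, minus strand): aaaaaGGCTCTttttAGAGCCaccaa
Hist1h4h (chr13:23531453-23531478, plus strand): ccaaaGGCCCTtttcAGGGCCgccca
Hist1h4i (chr13:22040961-22040986, minus strand): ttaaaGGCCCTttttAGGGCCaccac
Hist1h4b (chr13:23757361-23757386, plus strand): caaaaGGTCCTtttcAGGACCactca

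The stem differed by histone type. All 33 hairpins found in H1, H2A, H2B and H3 models had the stem of Hist1h1c, and they differed only in the last base of the loop: 26 had the Hist1h1c form, 6 that of Hist1h3c and 1, Hist2h2ac, its own. None of the 11 hairpins in H4 models had this stem. Of them, 7 had the form of Hist1h4h, 2 that of Hist1h4i (also Hist2h4) and 2 that of Hist1h4b (also Hist1h4j).

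The place of the hairpin in the annotated model mattered for reading the levels, which are scaled by model length. In 22 genes the model ended 3 to 74 bases after the hairpin, with a median length of 481 bases. In another 22 it ran on for 151 to 4884 bases, with a median length of 1255 bases. In the remaining 23 no hairpin lay in the model, and 13 of these models held the coding sequence alone. Hist1h1d, a linker histone gene, shows the size of the effect: its model had 7425 bases and its effective length was 7208 bases in replicate 1, so 570, 757 and 315 expected counts became only 0.77, 1.31 and 0.75 TPM. Hist1h4k, an H4 gene modelled as coding sequence alone, had an effective length of 103 bases in replicate 1, and 182, 206 and 104 counts became 17.1, 24.5 and 14.7 TPM. TPM, the number of transcripts of a gene per 1e+06 transcripts, is a length-scaled share of all RNA in a library. Counts are printed beside it for some genes whose place depends on the model length.

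The libraries held 52948456, 43538135 and 38601773 expected counts on genes, so that 3 counts corresponded to 0.0567, 0.0689 and 0.0777 CPM (counts per 1e+06 gene counts), which covers counting error only. Nuclear protein-coding genes took 22.7, 22.9 and 29.8% of the TPM but 84.0, 83.7 and 86.8% of the counts, so a TPM in replicate 3 is not on quite the same footing as in the others. Differences between libraries are therefore given below in CPM scaled with TMM factors. All 10 macrophage markers, among them Lyz2, Csf1r and Adgre1, were at 1 TPM or more in every library. T cell, erythroid, mast cell and stromal markers were below 1 TPM in every library, and the B cell markers reached 1.08 TPM at most, in Cd79b. The neutrophil precursor list (Elane, Mpo, Prtn3, Ngp, Camp, Ltf and S100a9) had 2 of 7 genes at 1 TPM or more in every library, Ngp and S100a9.

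Histone messages were present in every library but at modest levels. Of the 67 genes, 53 reached 1 TPM or more in every library, beside 41.4% of the 21938 nuclear protein-coding genes. Their median level was 5.09, 8.98 and 4.66 TPM in replicates 1, 2 and 3, and the gene means had a median of 6.52 TPM, against 0.173 TPM for all nuclear protein-coding genes. That pool is made up mostly of silent or low genes, with 12306 of 21938 below 1 TPM in every library. In the alignment-free tables, where nuclear protein-coding genes held 10.7, 6.27 and 6.54% of the TPM, 34 genes were at 1 TPM or more and the median was 1.97 TPM. Together the histone genes took 0.0568, 0.0662 and 0.0485% of gene counts (mean 0.0572%, SD 0.00886, n = 3). The 5 genes of highest mean TPM (Hist2h2aa2, Hist1h1c, Hist1h4h, Hist1h2bc and Hist1h4m) held 35.6% ± 4.91 (SD, n = 3) of the summed histone TPM.

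**Figure D1:**
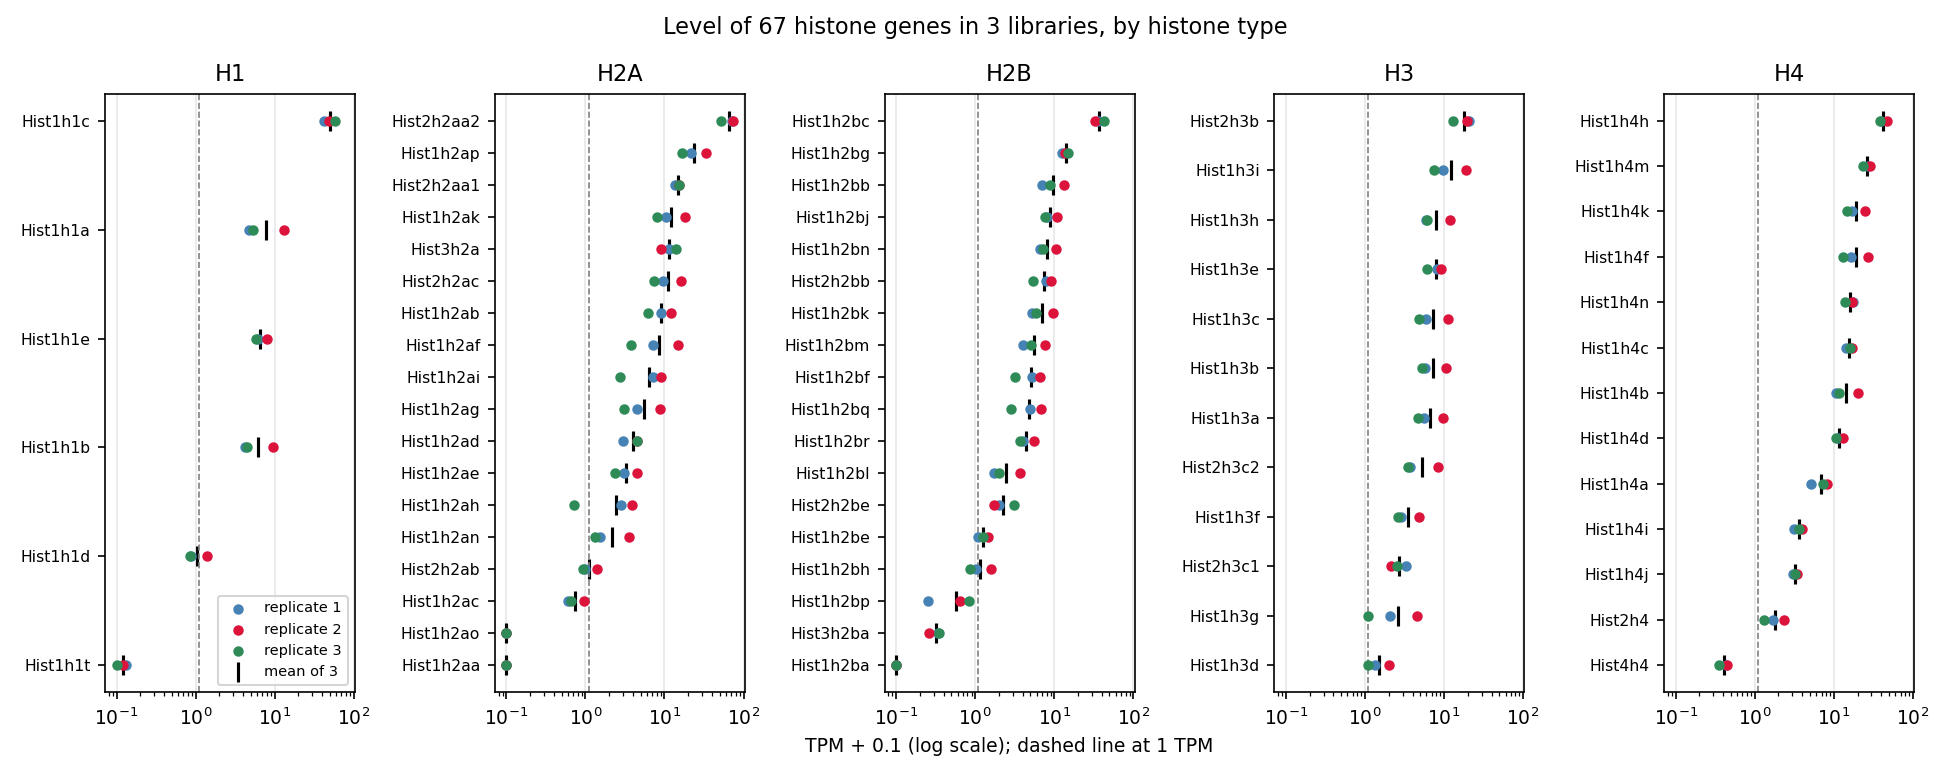
Level of each of the 67 histone genes in TPM + 0.1 on a log axis, one panel per histone type, with a point for each of the 3 libraries, a bar for their mean and a dashed line at 1 TPM. The gene of highest mean is Hist1h1c, Hist2h2aa2, Hist1h2bc, Hist2h3b and Hist1h4h for H1, H2A, H2B, H3 and H4, and replicate 2 is the highest library for most genes.

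By type, summed levels were 70.7 ± 11.9 TPM for H1, 181.0 ± 45.6 for H2A, 118.0 ± 14.9 for H2B, 81.1 ± 28.3 for H3 and 178.0 ± 29.6 for H4 (mean ± SD, n = 3). H2A and H4 lay within the spread of each other, and so did H1 and H3. In counts the order was another: H1 took 0.0162% ± 0.00197 of gene counts, H2A 0.0129% ± 0.00241, H2B 0.0115% ± 0.000645, H4 0.0101% ± 0.00192 and H3 0.00644% ± 0.00232. Counts grow with message length and TPM is scaled by it, and H4 has the shortest coding sequence of these types. By cluster, Hist1 summed to 488.0 ± 104.0 TPM, Hist2 to 129.0 ± 23.8, Hist3 to 11.6 ± 2.54 and Hist4 to 0.313 ± 0.0551.

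Linker histone H1 closes the DNA entering and leaving the nucleosome. Hist1h1c was its dominant gene, at 41.8, 48.8 and 58.5 TPM from 5805, 5267 and 4666 counts, which was 70.7% ± 9.01 (SD, n = 3) of H1 TPM. It had more counts than any other histone gene. Hist1h1a followed at 4.58, 12.9 and 5.27 TPM, with replicate 2 well above both others. Hist1h1e, at 6.05, 7.80 and 5.71 TPM, was above Hist1h1a in replicates 1 and 3 and below it in replicate 2. Hist1h1b, at 4.11, 9.42 and 4.38 TPM, was below Hist1h1a in every library, though their ranges over the libraries overlapped. The testis linker histone gene Hist1h1t had 2, 1 and 0 counts, at or under the floor of 3 counts.

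Among the H2A genes, whose products pair with H2B on the faces of the nucleosome, Hist2h2aa2 stood highest at 71.2, 74.5 and 51.6 TPM. No H2A gene overlapped it. However, 100% of its 50-base subsequences also lay in other genes, so the division of reads between it and its near-identical copy Hist2h2aa1 is uncertain. Its share of H2A TPM was 36.8% ± 3.93, and 29.3% ± 4.47 in the alignment-free tables (SD, n = 3). It was the highest H2A gene there too. Next came Hist1h2ap at 21.9, 33.2 and 16.5 TPM. It lay above Hist2h2aa1, at 13.5, 15.3 and 15.2 TPM, in every library, while Hist2h2aa1 overlapped Hist1h2ak, at 10.3, 17.9 and 7.96 TPM. In the alignment-free tables Hist2h2aa1 was above Hist1h2ap in replicate 3, at 4.10 against 3.13 TPM. Hist3h2a, the main gene of the small Hist3 cluster, had 11.2, 9.00 and 13.97 TPM but 2224, 1395 and 1594 counts on a 2146-base model, in counts close to Hist2h2aa2 with 2287, 1878 and 1002. The testis variant Hist1h2aa had 0 counts in every library.

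Among the H2B genes Hist1h2bc led with 35.4, 32.5 and 42.2 TPM, 31.6% ± 6.65 (SD, n = 3) of H2B TPM. Its annotated model is spliced and held no hairpin. Hist1h2bg followed at 12.6, 13.7 and 14.9 TPM, Hist1h2bb at 6.88, 13.4 and 8.74 TPM and Hist1h2bj at 7.92, 10.9 and 7.61 TPM. Hist1h2bc did not overlap any of them. Hist1h2bg lay above Hist1h2bb in every library, but narrowly in replicate 2, and their ranges overlapped. The testis variant Hist1h2ba, the head-to-head neighbour of Hist1h2aa, had 0 counts in every library.

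H3 and H4 form the tetramer at the centre of the nucleosome. The highest H3 gene was Hist2h3b, at 20.5, 19.4 and 12.9 TPM, whose range overlapped that of Hist1h3i at 9.65, 18.9 and 7.41 TPM. Within each library Hist2h3b was the higher, narrowly so in replicate 2. There the alignment-free tables put Hist1h3i higher, at 5.60 against 5.02 TPM. Hist1h3h had 5.76, 11.8 and 6.03 TPM and Hist1h3e 8.01, 9.20 and 6.04 TPM. In counts Hist1h3e, on an 836-base model, had 512, 459 and 226, close to Hist2h3b with 573, 427 and 220. No H3 gene was below 1 TPM in all libraries. The highest H4 gene in TPM was Hist1h4h at 39.9, 46.9 and 38.1 TPM, above every other H4 gene in every library. In counts it had 1043, 965 and 611, close to Hist1h4d with 1077, 954 and 586 on a 1138-base model. Hist1h4m had 27.0, 28.8 and 23.3 TPM, Hist1h4k 17.1, 24.5 and 14.7 TPM and Hist1h4f 16.5, 27.1 and 12.8 TPM, with overlapping ranges. Within each library Hist1h4m was above Hist1h4k and Hist1h4f. The alignment-free tables had Hist1h4k above Hist1h4m in every library, at 13.2, 9.42 and 5.27 against 11.7, 7.08 and 4.86 TPM. H4 had the highest median level of a gene, 14.1 TPM. The lone Hist4 gene, Hist4h4, had 0.34, 0.35 and 0.25 TPM from 93, 74 and 39 counts on a 2863-base model.

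In all, 8 genes were below 1 TPM in every library: Hist1h1t, Hist1h2aa, Hist1h2ac, Hist1h2ao, Hist1h2ba, Hist1h2bp, Hist3h2ba and Hist4h4. A further 6 crossed 1 TPM in part of the libraries. Only Hist1h2aa, Hist1h2ba and Hist1h2ao had 0 counts throughout, and the zero of Hist1h2ao is uncertain. That gene shares 93.5% of its 50-base subsequences with other genes, the authors' deposited upper bound for it was 1.41 TPM in replicate 1, and the alignment-free tables gave it 37.5, 9.71 and 10.8 estimated counts. Hist1h2ac, at 120, 154 and 74 counts, was low in TPM on a model of 2482 bases.

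The level of replication-dependent genes was set beside that of replacement histones, per type. For H3, the pair H3f3a and H3f3b, which encode the replacement histone H3.3, summed to 355, 383 and 540 TPM, against 73.8, 112.0 and 57.2 TPM for the 12 replication-dependent H3 genes. The ratio was 4.81, 3.41 and 9.44 (mean 5.89 ± 3.15, SD, n = 3), above 1 in every library, and 5.15, 3.70 and 10.0 (mean 6.29 ± 3.31, SD, n = 3) in the alignment-free tables. For H2A the order in TPM was the other way, with 6 replacement genes at 94.7, 104.0 and 126.0 TPM against 177.0, 229.0 and 138.0 TPM. The ratio was 0.536, 0.453 and 0.915 (mean 0.635 ± 0.246, SD, n = 3). In counts, which grow with message length, the replacement H2A genes were ahead in every library. The 18 replication-dependent H2A genes had 7213, 6480 and 3943 counts. Among the replacement genes, H2afy had 3655, 3162 and 3029 counts, H2afz 3293, 2743 and 2591, and H2afj 1481, 1176 and 1146. For H1, H1f0 and H1fx summed to 14.8, 14.1 and 23.7 TPM against 57.4, 80.2 and 74.6 TPM, a ratio of 0.250 ± 0.0715. The replacement genes of highest level were H3f3b at 179, 235 and 280 TPM, H3f3a at 176, 148 and 260 TPM and H2afz, which encodes H2A.Z, at 37.6, 40.4 and 51.0 TPM. H2afy3 and H1fx were below 1 TPM throughout.

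**Figure D2:**
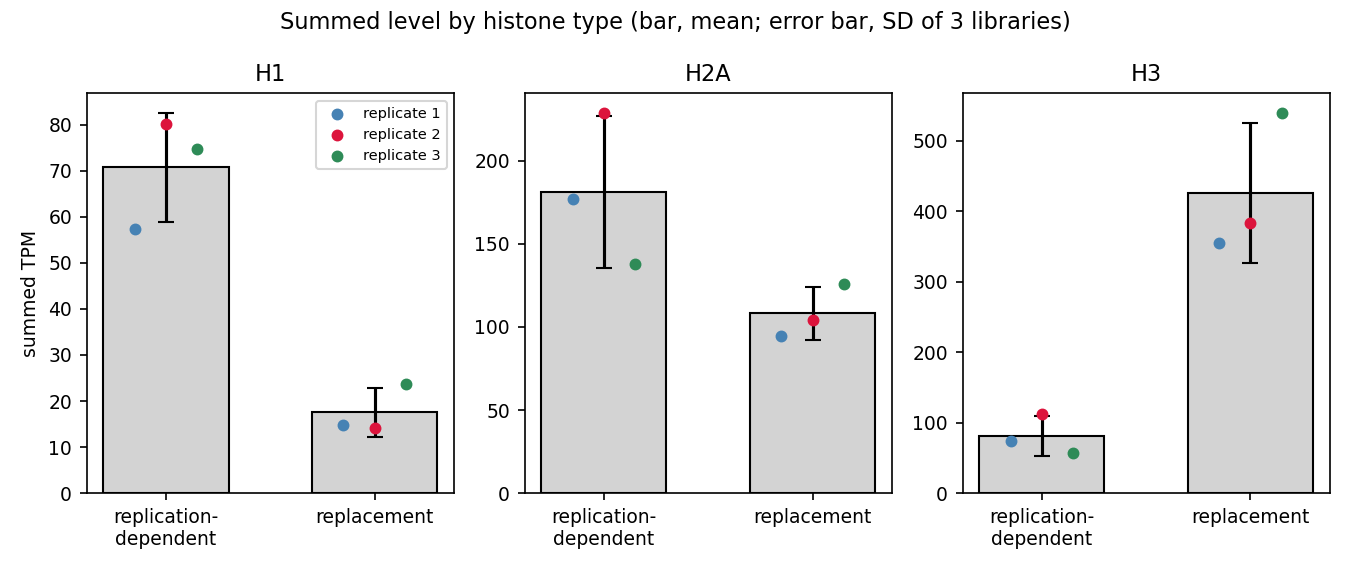
Summed TPM of replication-dependent and replacement histone genes for H1, H2A and H3, with bars for the mean of 3 libraries, error bars for the SD and a point for each library. In TPM, replacement genes exceed the replication-dependent ones for H3 in all 3 libraries and lie below them for H1 and H2A. For H2A the order in counts is the other way.

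The libraries of the group differed more in the histone genes than in most genes, and mostly in one direction. Of the 67 genes, 60 passed the filter on low counts (12737 genes in all), and 51 of these 60 had their highest CPM in replicate 2, beside 39.4% of all genes that passed. The lowest CPM lay in replicate 3 for 52 of 60, beside 34.3%. The median log2 difference was +0.46 for replicate 2 over replicate 1 and -0.92 for replicate 3 over replicate 2, where the median of all genes was 0.00. In this bulk RNA, fewer cells that make histone messages and less of them per cell cannot be told apart. The labels give no property by which replicate 2 or 3 was set apart.

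The size of the differences was large for replicates. At a mean count of 20 or more, 27 of 59 histone genes that passed the filter had a highest and a lowest library over 2-fold apart, beside 7.99% of the 12358 genes with that many counts. Without replicate 1 the number was also 27, without replicate 2 it was 5 and without replicate 3 it was 6, so it rested on the contrast of those libraries. Replicate 3 was over 2-fold below replicate 2 for 27 of 60 histone genes, beside 4.88% of all genes, and replicate 2 was over 2-fold above replicate 1 for 6 of 60, beside 3.83%. The median SD of log2 CPM over the 3 libraries was 0.51 for histone genes and 0.13 for all genes. The histone value was 0.643 without replicate 1, 0.34 without replicate 2 and 0.329 without replicate 3. Spread grows at low counts, so genes of like counts were set side by side. Between 100 and 300 mean counts the median SD was 0.60 for 34 histone genes and 0.18 for 1759 genes, between 300 and 1000 it was 0.39 for 15 and 0.11 for 2936, and between 1000 and 10000 it was 0.16 for 4 and 0.09 for 4963.

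H3 genes had the widest spread, with a median SD of 0.64 and a median difference of -1.25 from replicate 2 to replicate 3. H2A had 0.62 and -1.21, H1 0.57 and -1.13, H2B 0.49 and -0.84, and H4 the narrowest, 0.31 and -0.53. Over 2-fold apart were 9 of 12 H3 genes, 9 of 14 H2A, 3 of 5 H1, 4 of 15 H2B and 2 of 13 H4 genes. These differences between types were not tested. By annotated model, the median from replicate 2 to replicate 3 was -0.97 where the model ended near the hairpin, -0.77 where it ran on and -1.10 where it held none.

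Hist1h1a, the linker histone gene whose lead over Hist1h1e in mean TPM rested on replicate 2, shows the pattern in counts. It had 248, 546 and 168 counts, or 4.76, 12.6 and 4.25 CPM, which was +1.40 in log2 from replicate 1 to 2 and -1.56 from 2 to 3. Hist1h2af, an H2A gene, had 2.61, 5.16 and 1.11 CPM from 136, 223 and 44 counts. Hist1h2ag, another H2A gene, had 2.34, 4.37 and 1.29 CPM, and the H3 gene Hist2h3c2 had 5.84, 12.4 and 4.09 CPM. In each of these, replicate 2 was the highest library and replicate 3 the lowest. Hist1h3g, chosen after its values were seen, had 63, 115 and 19 counts and the steepest difference from replicate 2 to 3, -2.37.

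Some histone genes differed little between libraries or had another order. Hist1h1c had 112.0, 122.0 and 118.0 CPM, with an SD of log2 CPM of 0.06. Hist1h2bc had 66.0, 56.9 and 59.9 CPM, with an SD of 0.11, and Hist1h2bg had 10.0, 10.3 and 9.28 CPM, with an SD of 0.08. Against all genes of like counts, Hist1h1c was below and Hist1h2bc above the median SD of 0.09, and Hist1h2bg was below that of 0.11. Hist1h1c and Hist1h2bg were still highest in replicate 2, by +0.13 and +0.04 over replicate 1. Hist3h2a, at 42.7, 32.3 and 40.3 CPM, and Hist2h2be, at 9.01, 7.29 and 10.6 CPM, were lowest in replicate 2, and both were named after their values were seen. Altogether 9 of 60 genes were not highest in replicate 2: these 2 with Hist1h2bc, Hist1h2br, Hist1h4n, Hist2h2aa2, Hist2h3b, Hist2h3c1 and Hist4h4. By cluster, 45 of 48 Hist1 genes and 6 of 10 Hist2 genes were highest in replicate 2.

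**Figure D3:**
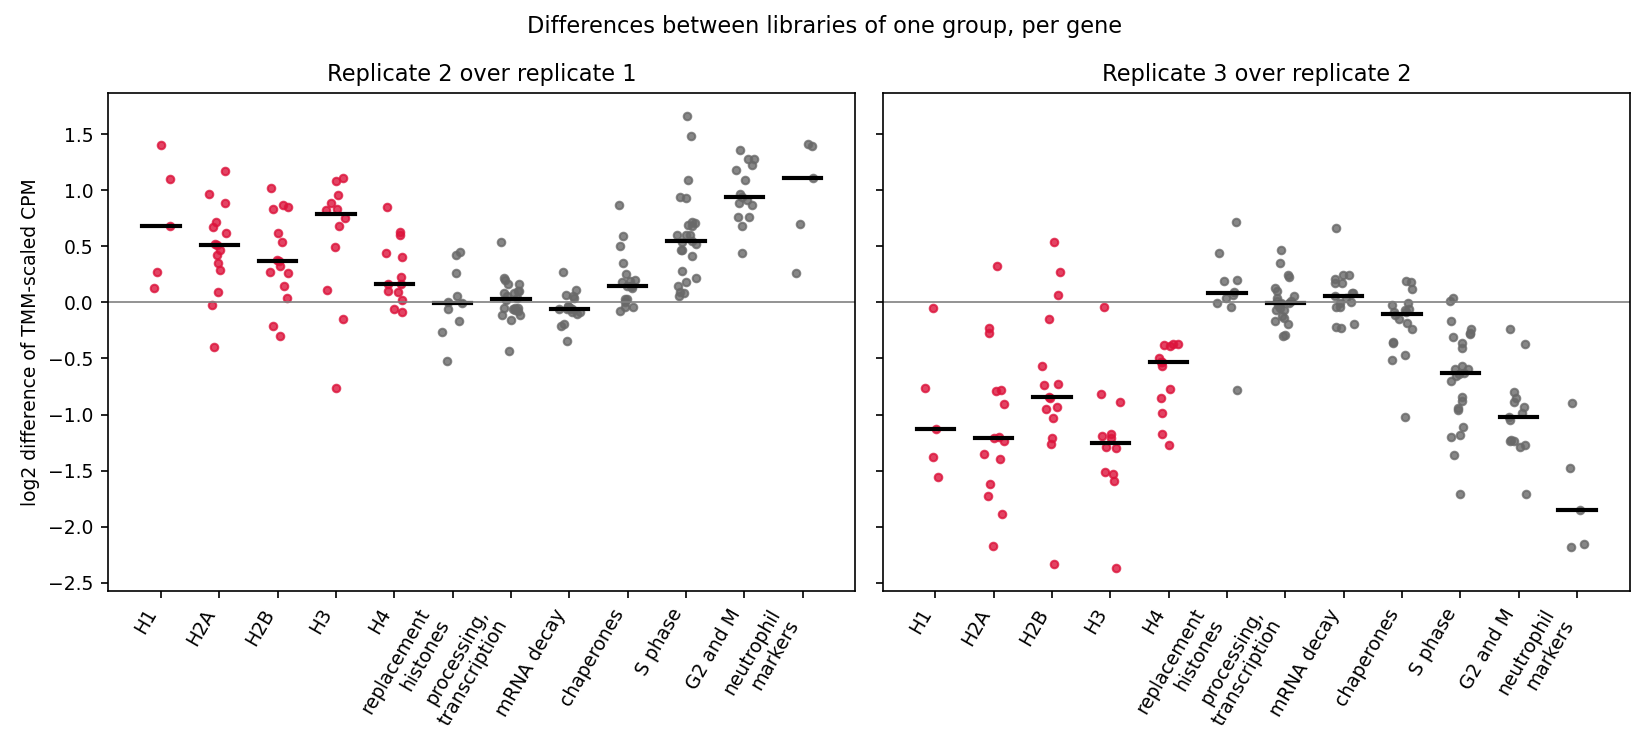
Log2 difference of TMM-scaled CPM between libraries for each gene, with replicate 2 over replicate 1 in the left panel, replicate 3 over replicate 2 in the right panel and a bar at the median of each group. Histone genes (red), S phase, G2 and M phase genes and neutrophil markers lie mostly above 0 on the left and below 0 on the right, and genes of replacement histones, histone mRNA processing and decay lie around 0.

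Genes that act on histone messages and histones were set beside them. The processing and transcription list holds SLBP, the U7 snRNP proteins, the cleavage factors and transcription factors of histone genes, and 20 of its 22 measured genes were at 1 TPM or more in every library. Srrt, a partner of the cap-binding complex, had 11.7, 16.9 and 15.7 TPM, Lsm10, a U7 snRNP protein, 11.5, 8.97 and 15.0 TPM, and Cpsf1, a cleavage and polyadenylation factor subunit, 10.4, 10.3 and 12.2 TPM. Lsm11, the other U7-specific protein, had 0.60, 0.57 and 0.83 TPM, and Zfp473, which binds the U7 snRNP, 0.11, 0.17 and 0.23 TPM. Slbp itself had 6.24, 7.24 and 8.98 TPM, and its log2 CPM differed by +0.08 from replicate 1 to 2 and +0.01 from 2 to 3. None of the 22 genes was over 2-fold apart between libraries, and their medians were +0.03 and -0.01.

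The decay list holds the exonuclease gene Eri1, the helicase gene Upf1, the LSM1 to LSM7 ring, decapping enzymes and uridylyl transferases. All 17 genes were at 1 TPM or more in every library, and none was over 2-fold apart. Its highest members were Tut7, a uridylyl transferase, at 21.9, 23.5 and 29.9 TPM, and the ring proteins Lsm4 at 15.7, 16.6 and 17.6 TPM and Lsm7 at 12.8, 14.1 and 16.7 TPM. The chaperone list had 17 of 18 genes at 1 TPM or more in every library, led by Nap1l1, a carrier of H2A and H2B, at 27.4, 31.4 and 36.4 TPM, with Atrx at 15.1, 21.1 and 20.4 TPM and Rbbp7 at 14.6, 17.5 and 19.7 TPM. Chaf1a, the large subunit of the chromatin assembly factor, was the 1 gene not detected throughout and the 1 gene over 2-fold apart, at 0.62, 1.94 and 0.81 TPM, and was named after its values were seen. The chaperone medians were +0.15 from replicate 1 to 2 and -0.10 from 2 to 3, with 14 of 18 genes (77.8%) highest in replicate 2, beside 39.4% of all genes. The decay list had -0.06 and +0.06, with 3 of 17 highest in replicate 2. The replacement histones had medians of 0.00 and +0.08, with 0 of 10 over 2-fold apart. Within them H2afx, named after its values were seen, differed by +0.42 and -0.78. Its messages are known to end in a stem-loop as well as in poly(A).

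The cell cycle lists moved with the histone genes. The S phase list had a median of +0.55 from replicate 1 to 2 and -0.63 from 2 to 3, with 23 of 25 genes highest in replicate 2 and 5 over 2-fold apart. The G2 and M phase list had +0.94 and -1.02, with 15 of 15 highest in replicate 2 and 10 of 15 over 2-fold apart. From replicate 1 to 3, however, the S phase list had a median of -0.03 and the G2 and M list +0.04, and the histone genes had -0.48. The difference between the lists was not tested. Pcna, the sliding clamp of DNA polymerases, had 59.5, 67.9 and 67.4 TPM and differed by only +0.09 and -0.31. Mcm6, a helicase subunit, had 7.48, 11.4 and 9.13 TPM, and Cdc6 stayed below 1 TPM. In the G2 and M list, Cdk1 had 5.22, 7.47 and 7.27 TPM, Top2a 3.38, 8.69 and 4.54 TPM and Mki67 2.76, 5.50 and 3.75 TPM, and Cenpf stayed below 1 TPM. The neutrophil precursor list moved in the same direction, with medians of +1.11 and -1.85 over its 5 genes that passed the filter, 4 of them over 2-fold apart. Its summed level was 987, 1602 and 542 counts. The macrophage list had +0.00 and +0.13. Whether cycling cells or neutrophil precursors had a part in the histone differences was not tested.

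Histone genes are often arranged head to head, and 13 such pairs had start sites less than 1000 bases apart. In 12 an H2A and an H2B gene faced each other across 175 to 305 bases, and in 1 an H2B faced an H3 gene across 659 bases. The levels of some of these genes, such as Hist1h2ao, Hist1h2bq and Hist1h2br, are uncertain because of shared sequence. In 3 of the 12 pairs with any counts the neighbours lay within 2-fold of each other in mean TPM. No share for histone genes that are not neighbours was set beside those 3 pairs. The 3 pairs were Hist1h2ak and Hist1h2bn at 12.0 and 8.10 TPM, Hist1h2ag and Hist1h2bj at 5.36 and 8.80 TPM, and Hist1h2bf and Hist1h2ad at 4.96 and 3.88 TPM. At the other end, Hist1h2bc had 36.7 TPM and its neighbour Hist1h2ac 0.637 TPM, on models of 1156 and 2482 bases. In counts that pair still differed, with 3433, 2459 and 2369 against 120, 154 and 74. Hist2h2ac and Hist2h2be had 11.0 and 2.16 TPM, but 300, 398 and 137 against 469, 315 and 419 counts. In CPM, Hist2h2ac was lowest in replicate 3 and Hist2h2be highest there, with the same 238 bases between their start sites.

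Promoter sequence was taken from RefSeq (GRCm38.p6), which covered 62 of the 67 genes by gene identifier; Hist1h3a, Hist1h2bc, Hist2h4, Hist1h3f and Hist2h2be had no entry. The windows reach from 250 bases before to 50 bases after the start site, and 4 motifs were searched on both strands. No motifs overlap in the windows shown. The 250 bases before the start site are shown for the steady Hist1h1c, for the widely spread Hist1h1a, for the leading H4 gene Hist1h4h, and for Hist2h2ac, whose window spans the start site of Hist2h2be, with the motifs found in capitals.
Hist1h1c (chr13:23738557-23738806, plus strand): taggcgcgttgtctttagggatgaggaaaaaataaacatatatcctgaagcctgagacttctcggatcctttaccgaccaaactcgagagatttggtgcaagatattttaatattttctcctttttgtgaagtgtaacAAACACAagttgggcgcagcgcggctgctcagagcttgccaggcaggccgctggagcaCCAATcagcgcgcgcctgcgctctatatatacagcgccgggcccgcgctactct
Hist1h1a (chr13:23763418-23763667, plus strand): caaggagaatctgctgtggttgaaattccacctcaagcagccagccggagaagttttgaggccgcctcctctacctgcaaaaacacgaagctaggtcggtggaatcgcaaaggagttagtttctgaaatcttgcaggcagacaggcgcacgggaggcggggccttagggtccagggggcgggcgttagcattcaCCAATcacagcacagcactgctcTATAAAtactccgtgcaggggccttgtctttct
Hist1h4h (chr13:23530794-23531043, plus strand): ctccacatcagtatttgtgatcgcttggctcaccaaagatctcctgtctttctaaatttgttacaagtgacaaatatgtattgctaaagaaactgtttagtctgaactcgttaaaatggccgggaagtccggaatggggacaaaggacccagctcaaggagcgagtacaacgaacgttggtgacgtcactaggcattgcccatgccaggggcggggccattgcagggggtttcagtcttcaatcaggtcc
Hist2h2ac (chr3:96220881-96221130, minus strand): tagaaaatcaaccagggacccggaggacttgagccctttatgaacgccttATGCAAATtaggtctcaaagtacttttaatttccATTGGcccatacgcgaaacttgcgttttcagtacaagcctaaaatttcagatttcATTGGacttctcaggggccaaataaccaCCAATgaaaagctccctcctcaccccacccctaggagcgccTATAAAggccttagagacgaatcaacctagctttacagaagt

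The motifs were counted by histone type and were not set against level. CCAAT (the CCAAT box) was in all 6 H1, 18 H2A, 16 H2B and 10 H3 windows but in 3 of 12 H4 windows, beside 37.4% of 32851 promoters. TATAAA (the TATA box) was, on either strand, in 4 of 6 H1, 11 of 18 H2A, 8 of 16 H2B, 4 of 10 H3 and 8 of 12 H4 windows, 35 of 62 in all, beside 13.6%. In the H2B windows of Hist1h2bf, Hist1h2bk, Hist1h2bn and Hist1h2bp and the H2A window of Hist1h2ae it was only on the opposite strand. There it lay in the direction of the facing gene of the head-to-head pair. ATTTGCAT (the octamer, bound by the POU factor of Pou2f1) was in 7 of 18 H2A and 7 of 16 H2B windows and in no window of the other types, beside 1.74%. Windows of facing genes overlap, so the H2A and H2B counts are not independent. Hist1h2aa and Hist1h2ba, Hist1h2ae and Hist1h2bg, and Hist1h2ah and Hist1h2bk each share a single octamer site that was counted for both genes. AAACACA (the H1 box) was in 5 of 6 H1 windows, Hist1h1a being the one without these letters, and in 2 H2A and 2 H2B windows, beside 7.18%. Hist1h2aa and Hist1h2ba share a single such site. In the sequences above, Hist1h1c and Hist1h1a share the CCAAT box, only Hist1h1a has the TATA box letters and only Hist1h1c has the H1 box. Hist1h4h has none of the 4. Hist2h2ac has the CCAAT box on both strands, the TATA box and, on the opposite strand, the octamer. A match is a run of letters and does not show that a factor was bound.

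Near-identical sequence limits what can be said of single genes. Of the 67 genes, 33 shared over 50% of the 50-base subsequences of their main transcript with another gene, though these genes held only 29.7% of the histone counts. Hist1h2bq and Hist1h2br, both H2B genes, shared 100% with other genes. Hist1h2bq had the largest SD among genes with 100 or more mean counts, 1.28, from 173, 173 and 30 counts, while Hist1h2br had 72, 75 and 83. The authors' deposited interval for Hist1h2bq ran from 0.784 to 8.59 TPM in replicate 1 and from 0.0844 to 6.18 TPM in replicate 3. Summed, the pair had 245, 248 and 113 counts, or 4.63, 5.70 and 2.92 CPM by library size alone, highest in replicate 2 like most histone genes. Other near-identical pairs gave 2803, 2335 and 1349 counts for Hist2h2aa1 with Hist2h2aa2, 902, 737 and 472 for Hist1h4m with Hist1h4n, and 600, 716 and 276 for Hist1h2ao with Hist1h2ap. By library size alone these were 52.9, 53.6 and 35.0 CPM, 17.0, 16.9 and 12.2 CPM, and 11.3, 16.5 and 7.15 CPM. All were lowest in replicate 3, but Hist1h4m with Hist1h4n was not highest in replicate 2, and Hist2h2aa1 with Hist2h2aa2 only narrowly so. At a mean count of 20 or more, 5 genes had an interval over 4-fold wide in a library: Hist1h2ah, Hist1h2ai, Hist1h2an, Hist1h2bq and Hist1h2br.

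The alignment-based and alignment-free levels, each as a share of the TPM of nuclear protein-coding genes, were close for most. Of the 60 histone genes averaging 20 counts or more, 1 was over 2-fold apart, beside 3.67% of 12421 genes. It was Hist2h3c1, an H3 gene that shares 100% of its subsequences, with a log2 ratio of +3.43: its 539, 263 and 235 expected counts stood against 123, 0 and 0 rounded estimated counts. Its sum with Hist2h3c2 was 843, 800 and 396 counts against 469, 571 and 195, so the difference was not only an exchange within the pair. It overlaps Gm20634, a noncoding gene on the same strand with 1210, 923 and 1096 counts, and so does Hist2h2aa1. Hist1h2ah stood at -1.0, at the threshold, and leaving out replicate 1 or replicate 2 gave 2 genes in place of 1. The next ratios upward, at a mean count of 100 or more, were +0.42 for Hist1h2bq and +0.38 for Hist1h2ad, and downward -0.70 for Hist1h2ak, -0.61 for Hist1h4k and -0.52 for Hist1h2bn. The median size of the ratio was 0.22 for 31 genes that share over 50% of their subsequences and 0.10 for 29 that share less.

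**Figure D4:**
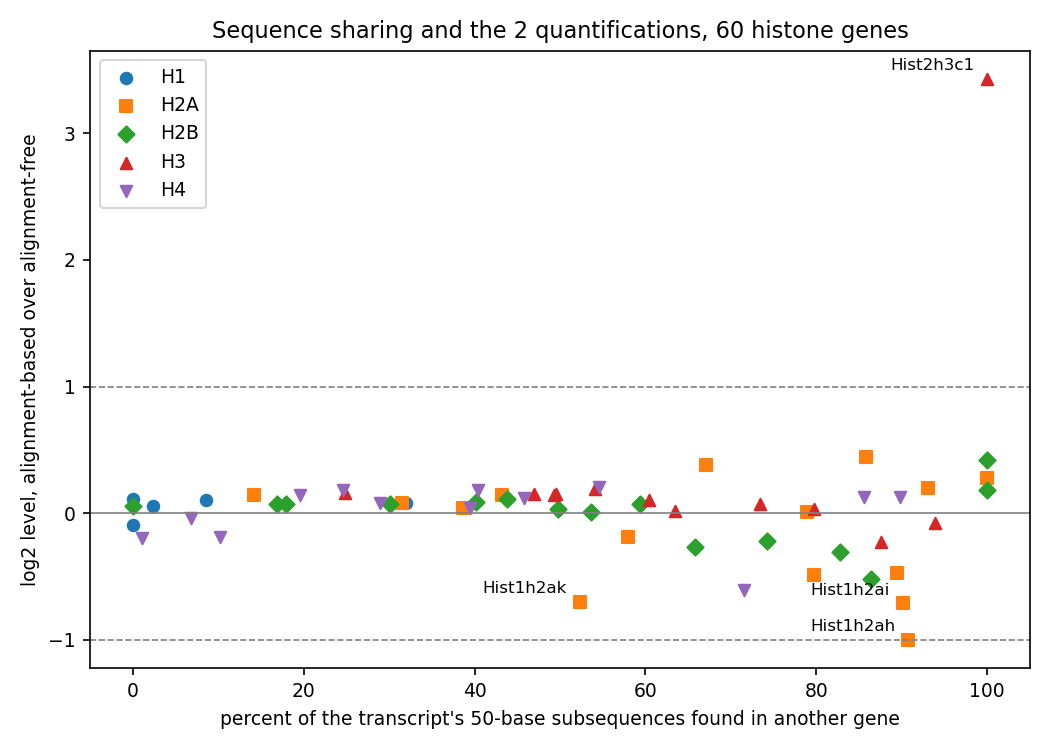
Log2 ratio of the alignment-based to the alignment-free level against the percent of 50-base subsequences that a gene's main transcript shares with other genes, for the 60 histone genes averaging 20 counts or more, with dashed lines at 2-fold. Hist2h3c1 lies at +3.43, Hist1h2ah at the lower line at -1.0, and the ratios scatter more where over 50% is shared.

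Only 5 histone genes had more than 1 annotated transcript: Hist1h2be, Hist1h2bp, Hist1h2bq, Hist1h2br and Hist2h3c1. Hist1h2bq and Hist1h2br each have an unspliced 381-base transcript of the coding sequence and longer spliced ones. The short form held 79.4, 83.2 and 100.0% of Hist1h2bq TPM and 99.2, 100.0 and 76.3% of Hist1h2br TPM. These shares carry the same uncertainty as the pair's levels. Hist1h2be, an H2B gene whose transcripts overlap those of the linker histone gene Hist1h1e on the same strand, had 96.9, 91.1 and 94.7% of its TPM on a spliced 2480-base transcript. With 227, 245 and 151 counts beside 1071, 1074 and 579 for Hist1h1e, reads from the overlap could have been counted for either. Hist3h2a overlaps Trim17 on the same strand, which had only 10, 39 and 9 counts. In total 24 of the 67 genes overlap another annotated gene, 21 of them one on the opposite strand, and whether the counting used strand is not given in the sources used here.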

How the data were processed

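Total RNA of the cytosolic fraction was sequenced in 3 libraries of 1 group. Per the labels, the build is mm10, and per the deposited text files the annotation is GENCODE M21. The authors deposited, per library, alignment-based gene and transcript tables with expected counts, TPM and the percent of gene TPM on each transcript, and an alignment-free transcript table with estimated counts and TPM, per the file headers. The expected counts are not normalized, and the deposited TPM is scaled over all targets. For strandedness and tool versions, the sources used here give nothing.

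Expected counts were rounded to whole numbers, filtered with filterByExpr and scaled with TMM in edgeR 4.0.16 (R 4.3.3), which gave log2 CPM with a prior count of 2. Rows that name no gene held 0.202, 0.189 and 0.057% of counts and were left out. With a single group there is no test between groups, and no p-value is given. The scaling was tested on simulated counts. Alternatives were DESeq2 1.42.0 size factors, library size alone, other thresholds, a prior count of 0.5, the alignment-free tables and each replicate left out.

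The members and lists were chosen with earlier results of these data known. Named genes were, per type, the 4 of highest mean TPM, the 5 of largest SD and the 3 per direction of largest ratio between quantifications at a mean count of 100 or more, genes with 0 counts, testis variants, and per other list the 3 of highest mean TPM with up to 2 below 1 TPM throughout. Of the listed names, 1 had no match. Slbp is in both the processing and the S phase list.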

Additional observations from a re-analysis of the deposited data

How the results depend on the processing

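Of 54 alternatives, 17 of them added after seeing the data, 44 gave the same call or a value within the spread, and none turned a direction. With 5 TPM in place of 1 TPM, 30 histone genes were detected against 53, and 34 were detected by alignment-free TPM. The median level was 1.97 TPM in the alignment-free tables. The share of counts was 0.0483% with alignment-free estimated counts and 0.0675% with nuclear protein-coding genes as the total, against 0.0572%. Histone genes over 2-fold apart between libraries numbered between 5 and 27 when 1 replicate was left out, 5 without replicate 2 and 6 without replicate 3, and 2 libraries in place of 3 give fewer chances to differ. Genes over 2-fold apart between the quantifications numbered 1 to 2 when 1 replicate was left out, and 2 with shares of counts in place of TPM, an alternative chosen after seeing the data. Also chosen after seeing the data were the other scalings for the direction between replicates: 50 or 51 of the genes that passed were highest in replicate 2 under each of them, and no scaling moved the median of all genes by more than 0.06. No paired analysis was possible because there is 1 group. Intervals and floors cover counting error only, and genes with few counts or shared sequence limit what depth can resolve.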
